A study of Mus musculus with 2 samples.

Results

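Accessibility of chromatin around 10 genes of the embryonic nephron progenitor programme was followed into kidney tissue of 36-day-old mice. The genes were Six2, Eya1, Osr1, Cited1, Sall1, Meox1, Gdnf, Wnt4, Wnt9b and Wnt11, chosen by name out of 21938 protein-coding genes of GENCODE M21. Each gene was examined over its body and 50 kb on either side (mm10), here called its locus. Kidneys came from female mice of strain B6CASTF1/J and were profiled by DNase-seq, in which the enzyme DNase I cuts open chromatin. There were 2 libraries, labelled biological replicates 1 and 2 of the 1 group, with no control and no embryonic sample. The labels number the females separately but give the same donor entry for both, so spread between libraries may be technical.

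During kidney development the cap mesenchyme holds the progenitors of the nephron, which Six2 keeps in a self-renewing state together with Eya1, Osr1 and Sall1. Gdnf from this mesenchyme makes the ureteric bud branch, and Wnt9b from the bud induces progenitors to switch on Wnt4 and form an epithelial vesicle. Mouse progenitors are used up within days of birth, so the adult kidney has no cap mesenchyme, while some of these genes keep other uses. Wnt9b and Wnt11 are known from the ureteric epithelium, not from the progenitors themselves, so the 10 genes do not mark 1 cell type.

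A site is the union of overlapping peaks of the libraries, and it is shared when both libraries have a peak in it. A promoter site lies within 1 kb of an annotated transcript start, and a distal site lies farther than that from every start of any gene. A footprint is a short stretch that the authors called as protected from cutting within open chromatin. Peak heights are the authors' signal, whose scale is unstated. They are used to describe and rank peaks, not as amounts of open chromatin. In whole tissue, fewer cells of a type and less accessibility per cell cannot be told apart.

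The reference sequences of 8 sites show what the deposited footprints cover at these genes, in capitals where footprints of both libraries overlap. They are the mm10 reference, which derives from C57BL/6J, and not the CAST/EiJ allele that these hybrid mice also carry. The promoter sites of Sall1, Wnt11 and Osr1 are the tallest promoter sites of those genes, and that of Six2 is the low promoter site found in replicate 1 alone. Stretches from sites over 300 bases are their central 300 bases.
Sall1 promoter site, chr8:89043491-89043790, + strand: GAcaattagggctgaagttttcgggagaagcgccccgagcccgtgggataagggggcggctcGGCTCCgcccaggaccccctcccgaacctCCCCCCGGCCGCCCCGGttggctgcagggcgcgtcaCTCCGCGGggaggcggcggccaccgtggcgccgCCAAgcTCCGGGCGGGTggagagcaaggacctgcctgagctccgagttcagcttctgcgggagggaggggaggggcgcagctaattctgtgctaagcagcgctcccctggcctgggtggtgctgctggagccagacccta
Wnt11 promoter site, chr7:98837981-98838180, + strand: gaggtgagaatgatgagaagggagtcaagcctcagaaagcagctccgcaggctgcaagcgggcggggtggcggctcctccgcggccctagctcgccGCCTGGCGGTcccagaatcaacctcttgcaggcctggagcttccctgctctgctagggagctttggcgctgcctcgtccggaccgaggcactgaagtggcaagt
Osr1 promoter site, chr12:9574201-9574440, + strand: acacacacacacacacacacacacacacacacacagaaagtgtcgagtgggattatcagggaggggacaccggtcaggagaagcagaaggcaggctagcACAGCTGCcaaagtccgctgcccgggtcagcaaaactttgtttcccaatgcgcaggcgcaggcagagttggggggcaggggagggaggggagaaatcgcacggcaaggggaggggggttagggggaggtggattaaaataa
Six2 promoter site, chr17:85689068-85689232, + strand: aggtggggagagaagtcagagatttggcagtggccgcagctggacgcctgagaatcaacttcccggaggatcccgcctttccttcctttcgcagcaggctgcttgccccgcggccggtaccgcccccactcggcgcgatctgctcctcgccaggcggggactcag
The Sall1 stretch had 48 of its 300 bases in footprints of both libraries, with a GC content of 71%. The Wnt11 stretch had 10 such bases, the Osr1 stretch 8 and the Six2 stretch 0.

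The tallest distal site of each of 4 loci is printed in the same way. These 4 loci held the 10 tallest shared distal sites, by mean percentile of height over the libraries.
Wnt11, intergenic, 18.9 kb upstream, chr7:98816141-98816380, + strand: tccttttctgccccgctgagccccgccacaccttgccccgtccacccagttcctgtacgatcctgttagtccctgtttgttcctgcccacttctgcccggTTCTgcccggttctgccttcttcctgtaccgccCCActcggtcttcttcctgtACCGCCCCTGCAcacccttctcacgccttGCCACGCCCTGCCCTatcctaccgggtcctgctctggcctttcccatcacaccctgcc
Wnt9b, intron, 14.1 kb downstream of the start, chr11:103735531-103735830, + strand: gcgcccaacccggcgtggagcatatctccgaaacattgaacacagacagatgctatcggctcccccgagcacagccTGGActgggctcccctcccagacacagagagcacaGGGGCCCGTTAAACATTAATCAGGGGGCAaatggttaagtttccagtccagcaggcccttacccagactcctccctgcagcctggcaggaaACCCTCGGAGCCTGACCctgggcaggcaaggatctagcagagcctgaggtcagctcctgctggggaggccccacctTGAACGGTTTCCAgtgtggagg
Sall1, intergenic, 28.4 kb downstream of the start, chr8:89015621-89015820, + strand: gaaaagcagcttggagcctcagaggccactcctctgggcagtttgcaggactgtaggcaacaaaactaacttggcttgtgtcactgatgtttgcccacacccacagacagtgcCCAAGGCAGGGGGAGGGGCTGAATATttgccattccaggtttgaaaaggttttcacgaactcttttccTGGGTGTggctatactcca
Meox1, intergenic, 2.8 kb upstream, chr11:101897031-101897330, + strand: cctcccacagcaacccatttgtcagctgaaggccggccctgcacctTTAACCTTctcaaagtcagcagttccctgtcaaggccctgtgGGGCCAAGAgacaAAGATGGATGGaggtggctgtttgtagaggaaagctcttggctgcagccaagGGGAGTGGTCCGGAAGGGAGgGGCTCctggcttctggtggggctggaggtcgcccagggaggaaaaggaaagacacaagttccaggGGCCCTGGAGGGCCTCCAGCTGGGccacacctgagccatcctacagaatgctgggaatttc
Footprints of both libraries covered 34 of 240 bases at the Wnt11 site, 63 of 300 at the Wnt9b site, 33 of 200 at the Sall1 site and 77 of 300 at the Meox1 site. Of the words of 8 bases in the Wnt11 distal stretch, 21% occurred more than once within it, which was 17.6% for the Osr1 promoter with its run of CA repeats. The part of this repetition in the heights was not tested. None of the printed stretches overlapped an annotated exon.

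At the promoters, 5 of the 10 genes had a peak in both libraries, namely Osr1, Cited1, Wnt11, Sall1 and Meox1, against 60.7% of all protein-coding genes. Another 4, Six2, Eya1, Wnt4 and Wnt9b, had a promoter peak in replicate 1 alone, as had 6.19% of all genes. Gdnf (chr15:7810846-7837575, + strand) had none in either library, like 32.9% of all genes. In replicate 1 the 9 genes with a peak compare with 66.9% of all genes, and in replicate 2 the 5 genes with a peak compare with 60.9%. Replicate 1 had 124504 peaks and replicate 2 had 68056, so the library with fewer peaks overall is also the one in which these promoters were missed. The part of this difference in the 4 missed promoters was not tested.

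The tallest promoter peaks of these genes ran from 0.52 to 5.4 in replicate 1 and from 0.693 to 4.18 in replicate 2. All were lower than the median over all genes with a promoter peak, which was 7.34 in replicate 1 and 5.35 in replicate 2. Sall1 (chr8:89027235-89044162, - strand), a zinc finger transcription factor, had the highest at 5.4 in replicate 1 and 4.18 in replicate 2. Of all genes with a promoter peak, 39.4% were lower than Sall1 in replicate 1 and 41.1% in replicate 2. Wnt11 (chr7:98835112-98855195, + strand), a ligand of the ureteric tip, reached 3.36 and 1.88 in replicates 1 and 2. Wnt9b (chr11:103727364-103749821, - strand), the ligand of the ureteric stalk that induces the progenitors, had 1.79 in replicate 1 and no peak in replicate 2.

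Six2 and Eya1 had the lowest promoter peaks of the 9 genes with one in replicate 1. Six2 (chr17:85684277-85688274, - strand), the homeobox factor that holds progenitors undifferentiated, had a height of 0.52 in replicate 1, higher than 2.39% of genes with a peak there, and no peak in replicate 2. Eya1 (chr1:14168954-14310235, - strand), a phosphatase and co-activator that works with Six2, had 0.538 in replicate 1, higher than 2.61%, and likewise no peak in replicate 2. Osr1 (chr12:9570116-9581500, + strand), a zinc finger factor of the early kidney mesoderm, had 1.5 in replicate 1 and 0.693 in replicate 2, higher than 12.9% and 2.46% of genes with a peak. These 3 genes thus had low or undetected promoter peaks in the replicate 2 library, which was not particular to them. Wnt4, Wnt9b and Gdnf had no promoter peak there either. Those of Cited1 and Meox1 were higher than 3.04% and 6.27% of genes with a peak in replicate 2.

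Cited1 (chrX:102247381-102252181, - strand), a transcriptional co-regulator that marks uninduced progenitors, had 0.872 and 0.733 in replicates 1 and 2. Meox1 (chr11:101877510-101894374, - strand), a homeobox factor also expressed in the cap mesenchyme, had 0.882 and 0.947, and it was the only one of the 5 genes with both values that was higher in replicate 2. Among all genes with a peak in both libraries 96.1% were higher in replicate 1. Wnt4 (chr4:137277489-137299726, + strand), the ligand that drives the switch to epithelium, had 0.9 in replicate 1 and no peak in replicate 2. Heights of Cited1, Meox1 and Wnt4 differed by less in replicate 1 than the heights of Meox1 differed between the libraries.

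**Figure D1:**
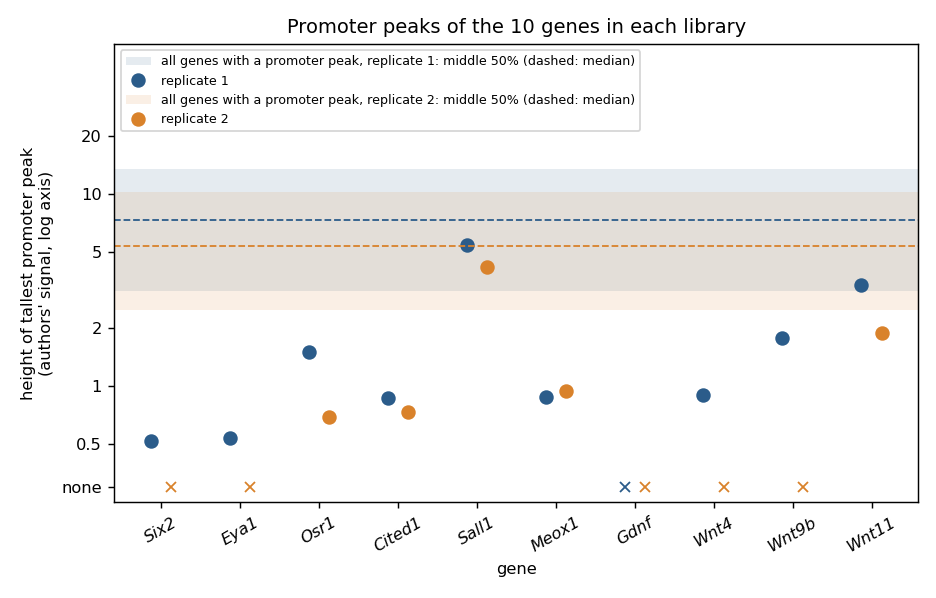
Height of the tallest promoter peak of each gene in replicate 1 and replicate 2 (authors' signal, log scale), with the median and quartiles over all genes that have a promoter peak. Sall1 at 5.4 and 4.18 comes closest to the medians of 7.34 and 5.35, and Gdnf has no peak.

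The wider of the deposited peak sets, which takes in weaker peaks, held promoter peaks in both libraries for 8 of the 10 genes, against 64.9% of all genes. In replicate 2 it added Six2 at a height of 0.387, Wnt4 at 0.54 and Wnt9b at 0.917. Eya1 remained without a promoter peak in replicate 2, and Gdnf in both. So for 3 of the 4 genes missed in replicate 2, the wider set held a promoter peak in that library. The height for Wnt9b was above those of Osr1 at 0.693 and Cited1 at 0.733 in the stricter set of replicate 2. Those for Six2 and Wnt4 were below both. The sets are thus not divided by height alone.

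The deposited false discovery rates were also smallest at the promoters of Wnt11 and Sall1. The lowest rate was 9.31e-34 in replicate 1 and 3.51e-15 in replicate 2 for Wnt11. Sall1 had 1.92e-23 in replicate 1 and 7.46e-15 in replicate 2. Six2 had 1.15e-05 and 0.0288, Wnt4 had 6.42e-10 and 0.00155, and Wnt9b had 1.61e-11 and 0.000974. For Eya1 the rate was 5.39e-08 in replicate 1, with no interval listed in replicate 2. Gdnf had no listed interval within its promoter window in either library. The windows of 9 genes held a footprint in replicate 1, against 67.6% of all genes, and those of 8 held one in replicate 2, against 62.5%. Sall1 had 19 and 8 footprints in its window in replicates 1 and 2, Wnt11 had 4 and 4, and Six2 had 1 and 1.

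The position of the peaks within the promoter windows also varied. In replicate 1 a peak lay over the annotated 5′ end of 5 genes, Osr1, Cited1, Wnt9b, Wnt11 and Sall1, against 43.1% of all genes. In replicate 2 it did so for 0 of 10, against 38.9% of all genes. The tallest promoter peak of Osr1 stood at a start site in its intron, 4.2 kb from the 5′ end. That of Wnt11 stood 3.0 kb inside the gene near downstream starts, and that of Sall1 0.5 kb inside the gene. The Six2 peak lay 0.9 kb upstream of the start, at the edge of its window. A window of 500 bp instead of 1 kb left 3 genes with a peak in both libraries, Osr1, Cited1 and Sall1.

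Promoters rich in the dinucleotide CpG are open in most tissues, so the genes were also set beside genes of like CpG content. The ratio of observed to expected CpG was taken around the 5′ end of each gene, while promoter peaks were counted at every annotated start. The 10 genes had a median ratio of 0.769, against 0.552 for all genes. Six2 had a ratio of 0.93 and fell in the highest decile of all genes, where 93.9% of genes had a promoter peak in both libraries. Gdnf at 0.824, Wnt4 at 0.859 and Wnt11 at 0.818 fell in the ninth decile, where 92.5% had one, yet Wnt11 alone of these had one. That Wnt11 peak stood 3.0 kb inside the gene, and the peak at its 5′ end was in replicate 1 alone. Eya1 at 0.786 and Wnt9b at 0.753 fell in the eighth decile, where 90.6% had one, and neither had. Of the 6 genes in deciles 8 to 10, 1 had a promoter peak in both libraries. The count rests on replicate 2: in replicate 1 alone 5 of the 6 had a promoter peak, beside 94.9% to 96.9% of genes in these deciles. With the wider peak set 4 of the 6 had one in both libraries, beside 93.6% to 96.3%.

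The 4 genes with lower CpG ratios all had a promoter peak in both libraries. Cited1 had a ratio of 0.733 in a decile where 88.1% of genes had such a peak, and Sall1 had 0.635 in a decile with 79.6%. Osr1 at 0.468 and Meox1 at 0.416 shared a decile with 62.6%. The shared Osr1 peak stood 4.2 kb from the 5′ end where CpG was measured, and the peak at that end was in replicate 1 alone. In the stricter set, the 5 genes without a shared promoter peak were thus all in deciles 8 to 10, and in the wider set Eya1 and Gdnf were the ones left without.

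**Figure D2:**
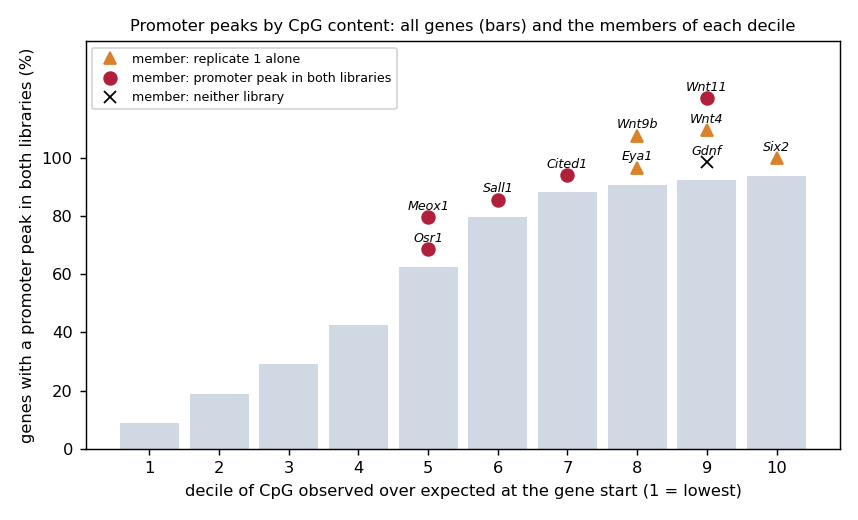
Share of protein-coding genes with a promoter peak in both libraries (%) by decile of the ratio of observed to expected CpG around the 5′ end, as bars. Peaks were counted at every annotated start. The 10 genes stand above the bar of their decile at a height without meaning, as circles for a peak in both libraries, triangles for replicate 1 alone and a cross for neither, and 1 of the 6 genes in deciles 8 to 10 is a circle (5 of 6 are circles or triangles, with a peak in replicate 1), where bars reach 90.6% to 93.9%.

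Across the 10 loci there were 96 sites, of which 46 were shared (47.9%, exact binomial 95% interval 37.6 to 58.4, counting error only). The other 50 were found in replicate 1 alone and 0 in replicate 2 alone. Over the whole genome 51.5% of 126548 sites were shared and 46.5% were found in replicate 1 alone, so the loci were close to the background in this respect. Of the 50 sites of replicate 1 alone, 22 overlapped a peak of the wider set of replicate 2, and 24 overlapped an interval with a false discovery rate under 0.05 there. The same shares over all sites of replicate 1 alone were not counted, so these counts have no background beside them.

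Of the 46 shared sites 38 were distal, or 82.6% (68.6 to 92.2), against 63.6% of all shared sites. Sites at the genes' own promoters numbered 5 and sites at promoters of other genes 3. Sites of 1 locus lie side by side and come from the same libraries, so the interval describes counting only. Of the genes' own promoter sites 5 of 14 were shared (35.7%, 12.8 to 64.9), against 65.8% of all promoter sites. Of their distal sites 38 of 75 were shared (50.7%, 38.9 to 62.4), against 45.8% of all distal sites. The 2 intervals overlap. A footprint in both libraries was present in 38 of 38 shared distal sites, against 91.2% of all shared distal sites, and in 4 of 5 shared own promoter sites, against 88.2% of all shared promoter sites. Of all 46 shared sites 45 had a footprint in both libraries (97.8%), against 90.1% of all shared sites. The exception was Meox1, whose promoter site had 0 footprints in replicate 1 and 2 in replicate 2.

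Distal sites had heights close to those elsewhere in the genome. Their median height was 2.09 in replicate 1 and 1.41 in replicate 2 (n = 38), against 2.11 and 1.26 for all shared distal sites. The shared own promoter sites had medians of 1.5 and 0.947 (n = 5), against 4.2 and 2.59 for all shared promoter sites. In replicate 1, all 6 genes with a shared distal site had one taller than their tallest promoter peak. The share of all genes for which this holds was not counted, so it cannot be called a trait of these genes. Up to 10 shared distal sites of a gene were set against its promoter. Peaks were higher in replicate 1 at 41 of the 46 shared sites and higher in replicate 2 at the other 5.

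**Figure D3:**
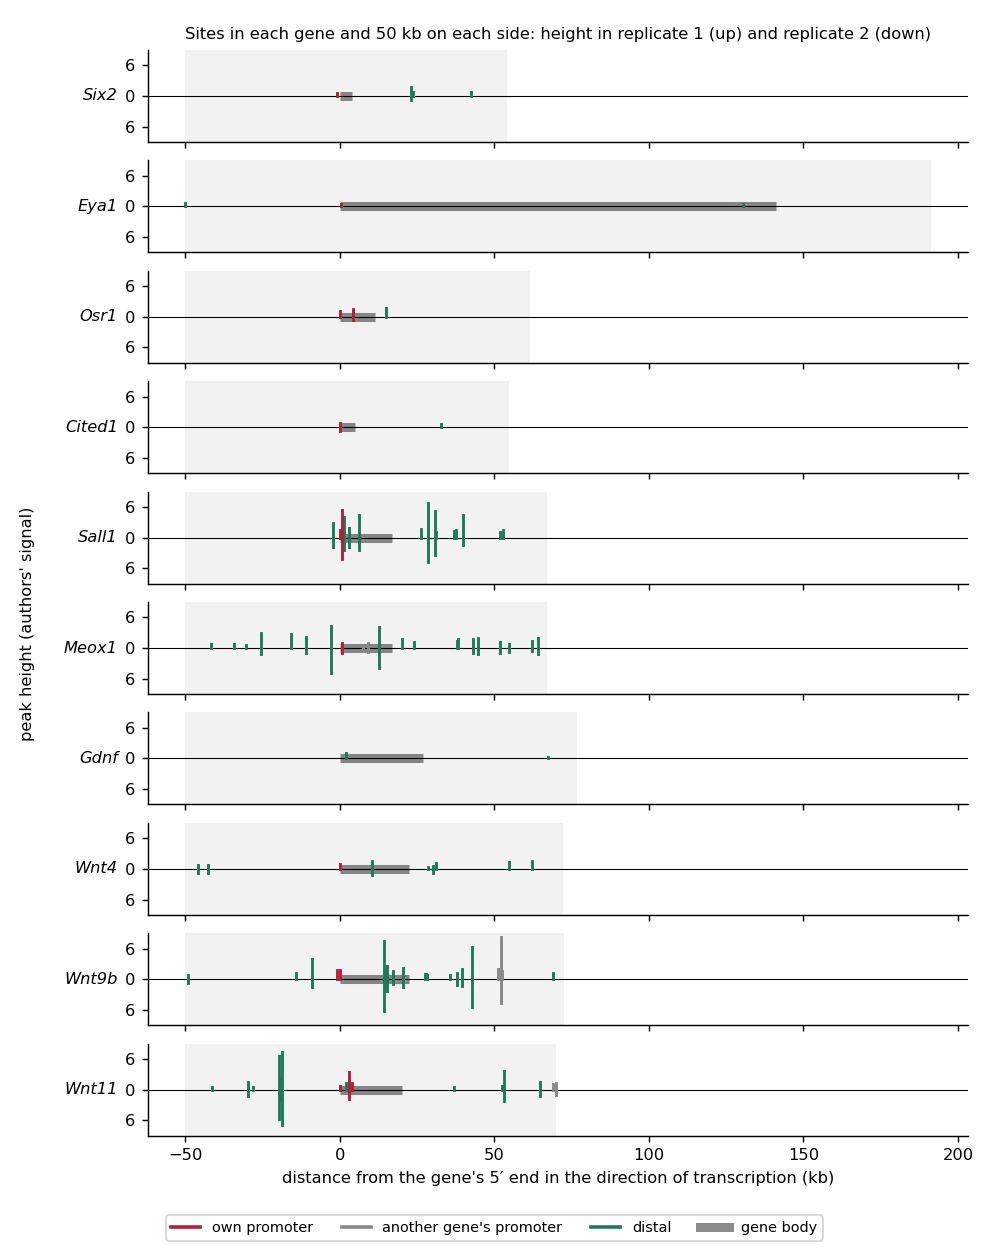
Sites of the 10 loci by distance from the 5′ end of each gene (kb, in the direction of transcription), with bars for height (authors' signal) in replicate 1 upward and in replicate 2 downward, red at own promoters, grey at other promoters and green at distal sites. A bar that points only upward is a site of replicate 1 alone. Wnt9b, Wnt11, Sall1 and Meox1 hold 39 of the 46 shared sites, and Eya1 and Gdnf hold 0.

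Shared sites were unevenly spread over the genes. Meox1 had 12, Wnt9b 11, Wnt11 8 and Sall1 8, together 39 of 46, a grouping made after the values were seen. Wnt4 had 4, Six2, Osr1 and Cited1 had 1 each, and Eya1 and Gdnf had 0. Per 100 kb of locus this came to 10.3 for Meox1, 8.98 for Wnt9b, 6.84 for Sall1 and 6.66 for Wnt11, against a median of 4.51 over all genes. The median of the 10 genes was 2.12. A locus without a shared site occurred for 2 of the 10 genes, against 16% of all genes, and a locus without a shared distal site for 4, Eya1, Osr1, Cited1 and Gdnf, against 24.4%.

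For distal sites alone, the densities of Meox1 and Wnt9b were high. Meox1 had 8.56 shared distal sites per 100 kb, more than 96.6% of genes, and Wnt9b had 8.17, more than 95.9%. Sall1 had 5.99, more than 89%, and Wnt11 had 5, more than 83.4%. Wnt4 had 3.27, above 67.6% of genes, and Six2 had 0.962, above 37%. The median of the 10 genes was 2.12 and that of all genes 1.89, so the set as a whole lay near the background while its members ranged from 0 to the top of it. A locus window can hold sites of neighbouring genes, and which gene a site acts on was not measured.

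**Figure D4:**
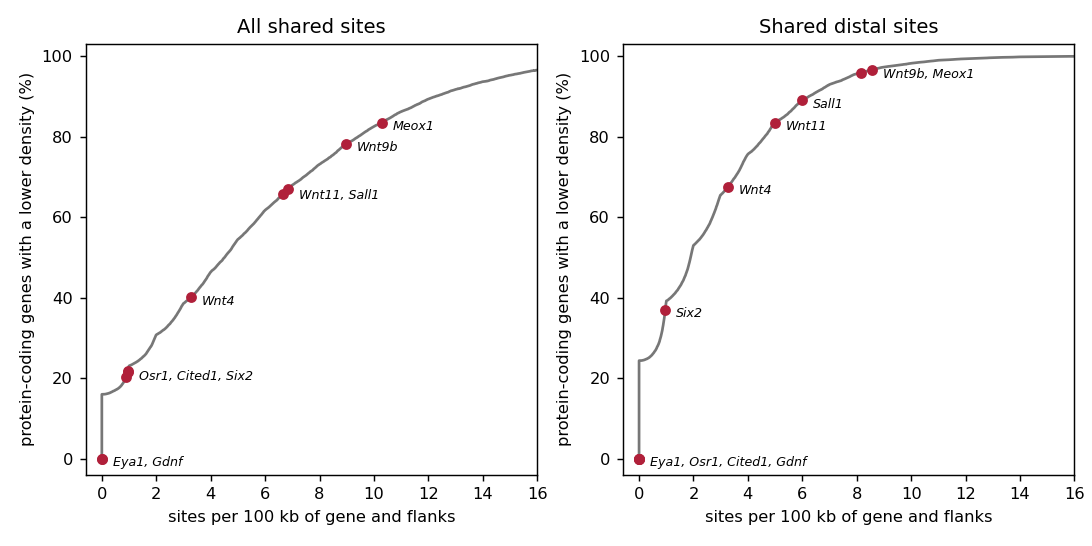
Density of shared sites (left) and shared distal sites (right) per 100 kb of locus against the share of protein-coding genes with a lower density (%), with the 10 genes as points on the curve of all genes. Meox1 and Wnt9b stand at 96.6% and 95.9% for distal sites, and Eya1, Osr1, Cited1 and Gdnf stand at 0.

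The Wnt11 locus held the tallest distal site by mean percentile among the 10 genes, at 7.29 in replicate 1 and 6.92 in replicate 2. It is the intergenic site 18.9 kb upstream printed above, and its neighbour 19.7 kb upstream reached 6.49 and 5.81. With a lower site at 2.22 and 1.99 between them, the 3 spanned 1100 bp and held 14 footprints in replicate 1 and 10 in replicate 2. Both of the tall sites exceeded the Wnt11 promoter peak of 3.36 and 1.88 in the same library. Within the gene Uvrag, also inside the Wnt11 window, a further site had 3.75 and 2.14.

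At Wnt9b the main site was the intronic one 14.1 kb downstream of the start, with 7.46 in replicate 1 and 6.16 in replicate 2. It had 5 and 6 footprints in replicates 1 and 2. Next to it on its 3′ side stood 2 lower sites, with 2.36 and 1.68 at 15 kb from the start and 2.51 and 2.32 at 15.2 kb. The gene's promoter had a height of 1.79 in replicate 1 alone, so the taller peak of Wnt9b was intronic in both libraries. A site 42.6 kb downstream, in an intron of C130046K22Rik, had 6.4 and 5.47, and the promoter of the neighbour Gosr2 had 8.25 and 4.59.

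Sall1 had shared sites at its promoter, inside the gene and downstream. The site 28.4 kb downstream of the start, beyond the end of the gene, had 6.73 in replicate 1 and 4.77 in replicate 2, and one 30.8 kb downstream had 5.13 and 3.43. Within the introns of Sall1 the site at 1.3 kb had 4.03 and 2.49 and that at 6.1 kb had 4.33 and 2.34. Sall1 thus had both the highest promoter peak of the 10 genes and several intronic and downstream sites.

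Meox1 had the largest number of shared sites of the 10 genes. Its site 2.8 kb upstream had 4.37 in replicate 1 and 4.82 in replicate 2, with 5 and 7 footprints, while its promoter had 0.882 and 0.947. The intronic site 12.5 kb downstream of the start had 4.03 and 3.89. Another 6 shared distal sites lay beyond the 3′ end of the gene, between 43.1 and 64 kb from its start, with heights of 0.807 to 2 in replicate 1. Meox1 is also used in somites and vessels, and these values do not tell which kidney cells the sites come from.

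Wnt4 had 4 shared sites, all distal. The one in its intron 10.5 kb from the start had 1.6 in replicate 1 and 1.13 in replicate 2. Those 45.8 and 42.8 kb upstream had 0.77 and 0.733 in replicate 1 and 0.876 and 0.764 in replicate 2, and the one 30 kb downstream had 0.529 and 0.825. Thus 3 of the 5 shared sites with a higher peak in replicate 2 were at Wnt4.

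Six2 had 1 shared site, 23.1 kb downstream of its start at chr17:85665061-85665240, with 1.69 in replicate 1 and 0.723 in replicate 2. It was taller than the promoter peak of 0.52. Eya1 had 3 sites, all of replicate 1 alone, over a locus of 241 kb. Besides its promoter these were an intronic site at 0.464 and one 50 kb upstream at 0.64. Osr1 had a distal site 14.8 kb downstream of its start with 1.71, again in replicate 1 alone, which the wider set also held in replicate 2 at 0.54.

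Gdnf, the ligand that signals through Ret to make the ureteric bud branch, had 2 sites, both of replicate 1 alone. That in its intron 2.1 kb from the start had a height of 1.04, and the wider set held it in replicate 2 at 0.53. The other, in an intron of the neighbour Wdr70, had 0.343. Cited1 had 1 further site, 32.8 kb downstream, at 0.575 in replicate 1 alone. Around Six2, Eya1, Osr1, Cited1 and Gdnf there were thus 3 shared sites in all, of which 1 was distal, a grouping also made after the values were seen. The low total depends on the stricter set. With the wider set these genes, in the same order, had 3, 2, 3, 1 and 1 shared sites. Of those, 2, 2, 1, 0 and 1 were distal.

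The intervals under a false discovery rate of 0.05, taken without regard to peak calls, covered 7.81% of the Meox1 locus in replicate 1 and 4.61% in replicate 2. For Wnt9b they covered 6.86% and 3.65%, for Sall1 6.22% and 3.08%, and for Wnt11 5.38% and 3.59%. Eya1 had 0.535% and 0.0858%, and Gdnf 0.496% and 0.11%, against 1.97% and 1.11% of the genome. Six2 at 1.49% and 0.36%, Osr1 at 1.27% and 0.544% and Cited1 at 0.918% and 0.378% were also below the genome in both libraries, and Wnt4 at 3.17% and 1.19% was above it. The genome values cover all bases and not gene loci alone. Beside the loci of all genes, Wnt4 with 3.27 shared sites per 100 kb was below the median of 4.51.

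Footprint numbers differed likewise between the loci, with 68 in replicate 1 and 44 in replicate 2 for Wnt9b, against 3 and 1 for Gdnf and 6 and 1 for Eya1. Six2 had 10 and 3. Within the 46 shared sites, 77 of 157 footprints of replicate 1 were found again in replicate 2 over at least 50% of the shorter, or 49%, against 51.4% in all shared sites. At the shared distal sites this was 62 of 126, or 49.2%, against 45.2%, and at own promoter sites 8 of 17, or 47.1%, against 60% for promoter sites of all genes. Of the replicate 1 footprints in these shared sites, fewer than 50% were thus seen again in replicate 2, near the share in all shared sites. The reverse share, of replicate 2 footprints found in replicate 1, was not counted.

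Consensus motifs of factors known from progenitors and tubules were searched on both strands in windows of 300 bases centred on the 46 shared sites, in the same way as for all shared sites. Most sites are shorter than the window, so a match can lie in the flank. TCANGTTTC, the motif taken for Six2 and its relatives, matched 0 of the 46 windows, against 1.18% of those of all 65134 shared sites. CTTTGAT, for the TCF/LEF factors that act in Wnt signalling, matched 0, against 3.54%. The PAX motif matched 0, against 0.267%, and the GATA motif AGATAAG 0, against 2.59%. At these background shares 46 sites are too few to show a lower share. TTTATNG, for HOX factors, matched 3 windows, 6.52% against 8.69%, with the match inside the site itself in 2 of them and in no footprint.

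The AP-1 motif TGANTCA matched 5 of the 46 windows, or 10.9%, against 9.76% of all, and in 3 of the 5 the match lay inside the site. The SP/KLF motif GGGCGGG matched 8 windows, or 17.4%, against 17.9%, with the match inside the site in 7. Of these 8 windows, 5 were among the 38 distal ones, against 6.44% of all distal windows. The other 3 were among the 8 promoter ones, against 38.1% of all promoter windows. Shared sites of these loci are more often distal than all shared sites, so the pooled shares compare unlike mixes. In 4 of the 8 windows a match overlapped footprints of both libraries. One of these was the Sall1 promoter site, in whose printed stretch the match lies within the capitals TCCGGGCGGGT. The HNF4 motif CAAAGTNCA matched 1 window, against 3.76%, and the CTCF motif matched 1, the Wnt9b site 9.1 kb upstream, overlapping footprints of both libraries, against 1.83%.

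The strict palindromic HNF1 motif matched 0 windows, against 0.0246% of all. A shorter form of it was chosen after the printed Wnt9b sequence was seen, so its match there is no finding. It matched 1 of the 46 windows, the Wnt9b intronic site at chr11:103735649-103735660, within footprints of both libraries, against 0.43% of all. HNF1 factors are regulators of kidney tubule genes. Whether one binds there was not measured.

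Other genes of the same developmental steps, taken from lists written by hand, were set beside the 10 genes, of which 50% had a promoter peak in both libraries. Of 20 further progenitor genes 13 had a promoter peak in both libraries (65%), close to the 60.7% of all genes. Dpf3 was highest at 24.8 in replicate 1 and 16.4 in replicate 2, then Gas1 at 11.9 and 9.93, Osr2 at 9.85 and 7.04, and Bmp7, a survival factor of the progenitors, at 5.48 and 3.51. Uncx, Hoxc11, Hoxd11 and Spock2 had none in either library. The median height was 0.9 in replicate 1 for the 9 of the 10 genes with a peak there and 0.947 in replicate 2 for the 5 with one, against 3.44 and 2.07 for this list.

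Of 20 partners in ureteric branching and Wnt signalling 16 had a promoter peak in both libraries (80%), against 60.7% of all genes. Etv5, a target of Gdnf signalling, had 26.8 and 27.7 in replicates 1 and 2, while the receptor gene Ret had 0.51 in replicate 1 alone. Lgr4 had 16.9 and 16.5, Fzd4 had 18.3 and 11.4, and Fzd8 had 10.9 and 7.97, all encoding receptors that take part in Wnt signalling. Lef1 and Grem1 had none. The ligand Gdnf and its receptor gene Ret were both without the shared promoter peak that 60.7% of all genes had. Gfra1, the co-receptor, had 3.4 and 1.96. Ret and Gfra1 are named as partners of Gdnf and fall outside the rule for other genes.

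Of 20 genes of the renal vesicle and early patterning, the step after Wnt4, 15 had a promoter peak in both libraries (75%), against 60.7% of all genes. Hes1, a Notch target, had 16 and 14.8 in replicates 1 and 2, Pou3f3 had 10.2 and 10.8, Notch2 had 9.44 and 7.85, and its ligand gene Jag1 had 8.09 and 6.78. Fgf8, Hes5, Greb1 and Sfrp2 had none. Of 20 transcription factors of adult kidney 19 had one (95%), led by Nr3c2, the mineralocorticoid receptor gene, at 23.6 and 19.7, with Klf15, Elf3 and Nr3c1 after it. Median CpG ratios were 0.693 for the branching list, 0.789 for the vesicle list and 0.584 for the adult factors, against 0.552 for all genes. The 60.7% is thus not matched for CpG content. The lists were chosen with results known, so these counts carry no test.

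The tissue label held against its markers. Of 15 genes of kidney tubule, podocyte and vessel cells 12 had a promoter peak in both libraries and 3 in replicate 1 alone. Among all genes these shares were 60.7% and 6.19%. Of 15 markers of other tissues 1 had one, the neuronal gene Snap25, at 2.12 and 1.05 in replicates 1 and 2. Of 10 stromal markers 5 had one in both libraries and 3 in replicate 1 alone. The part of each cell type in the sites of the 10 genes was not tested.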

How the data were processed

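DNase-seq of 2 kidney libraries (1 group) was analysed from deposited files on mm10. The authors deposited, for each library, peak files with a signal value per peak, files with a false discovery rate per interval (a q-value, every one below 0.05) and footprint files with the value 0.01 in every row. The aligner is not stated in the sources used here. The same holds for the peak caller and the number of reads, so depth is unknown. The stricter deposited peak set was used, and the wider one as 1 of the alternatives.

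Annotation was GENCODE M21 and sequence from GRCm38.p6 (the mm10 assembly, 21 chromosomes). Peaks overlapping by at least 1 base were joined, and sites were assigned to loci by their middle. The scripts used Python 3.11.15, pandas 2.3.3, numpy 2.4.6, scipy 1.17.1, pysam 0.24.0, bedtools 2.31.1, samtools 1.23.1 and matplotlib 3.10.9, and were tested on simulated data. With 1 group no test between groups was made. Counts of the 10 genes stand beside the same over all genes. All 10 are named. From each further list up to 4 genes with the highest mean percentile of promoter height and up to 4 first in list order with no promoter peak are named, not all of them with values. The members, lists and this rule were chosen with earlier results of these data known. Alternatives changed the peak set, the peak strength, the overlap, the start-site window, the flank, the transcripts and the libraries.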

Additional observations from a re-analysis of the deposited data

How the results depend on the processing

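The number of genes with a promoter peak in both libraries, 5, was 8 with the wider peak set, 2 (Wnt11 and Sall1) with the stronger 50% of peaks and 3 with a window of 500 bp, and 5 to 9 when one library was left out. The other alternatives left it at 5. The 46 shared sites became 71 with the wider set, 22 with the stronger 50% of peaks, 20 with flanks of 10 kb, 83 with flanks of 100 kb and 16 in gene bodies alone, and ranged from 46 to 96 when one library was left out. The distal share of 82.6% was 62.5% in gene bodies alone, 70% with flanks of 10 kb and 73.5% with flanks of 100 kb. It was 76.1% with the wider set, 78.3% with a window of 2500 bp and 78.1 to 82.6% when one library was left out. It rose to 86.4% with the stronger 50% of peaks, 87% with starts of protein-coding transcripts and 89.1% with a window of 500 bp. The share of shared sites with a footprint in both libraries, 97.8%, was 84.5% with the wider set, 100% with the stronger 50% of peaks and 87.5 to 97.8% when one library was left out. With a library left out, a site is a peak of the remaining library within that peak's own bounds, and needs a footprint of that library alone. Every site of these loci had a replicate 1 peak, so the counts of peaks were the same without replicate 1. The footprint share without replicate 1 was again 97.8%, with another exception, a Wnt9b peak at chr11:103710142-103710201 that held no replicate 2 footprint within its bounds. No paired analysis was possible because the series has 1 group. Read totals are unknown, so a promoter without a peak in replicate 2 may be below what that library could detect.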
